A study of Mus musculus with 41 samples.

Results

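Genomic imprinting leaves one parental copy of a gene active and the other silent, marked by DNA methylation laid down in the egg or sperm. Imprinted genes lie in clusters, and many act on fetal growth, the placenta and the brain. The copies are told apart by differentially methylated control regions, where the zinc-finger protein ZFP57 and its partner TRIM28 hold the methylation in early embryos and in embryonic stem cells (ESCs). Imprinted genes are also known for losing this control in cultured ESC lines.

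The imprinted genes described here are Nnat, Peg3, Peg10, Sgce, Zdbf2, Gnas, Mest, Plagl1, Snrpn and Grb10. They were taken by symbol as 10 of the 51410 genes in the RNA-seq count tables, and all 10 passed the filter on low counts in every comparison. The tables hold 31 libraries of mouse R1 ESCs, in which Caprin1, encoding a cytoplasmic RNA-binding protein of stress granules, was labelled as either knocked out (KO) or wild type (WT). The KO cells are a pair of lines, clone 2 and clone 4, each grown from 1 clone. All cells, WT included, had 4 days of 1 µM retinoic acid without the cytokine LIF and then 2 µg/ml α-amanitin, a blocker of RNA polymerase II, for 0, 2, 4 or 8 h. Clone 2 has 2 libraries at each time, clone 4 has 1 at 0 h and 2 at each later time, and WT has 4 at each time. The labels give no separate cultures, so p-values measure the spread between libraries, which may be technical. The gene counts carry no information on the parental copy, and fewer cells of a type cannot be told apart from less RNA per cell in such bulk samples.

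Caprin1 itself stood at 106 to 196 CPM (counts scaled to library size) in the 8 clone 2 libraries, against 765 to 1159 CPM in the 16 WT libraries. In the 7 clone 4 libraries it stood at 989 to 1223 CPM, so its RNA was not lowered in the line labelled KO clone 4. Gene counts do not show whether clone 4 makes the protein. Library totals ran between 3460172 and 31565738 counts. The 4 WT libraries at 0 h fell into pairs, replicates 1 and 2 against replicates 3 and 4: set against each other, libraries gave a chi-square per gene of 2.86 and 3.62 within the pairs and 18.7 to 41.4 across them, where counting noise alone gives about 1. WT at 8 h fell into the same pairs, at 1.93 and 2.34 within and 6.88 to 10.8 across, and WT replicate 1 at 4 h stood apart from the others, at 6.56 to 14.9 beside 1.73 to 3.62 among them. At 2 h the range was 2.21 to 5.03. Calls of the 10 genes that were lost with either pair alone are named beside the result. For the pooled comparisons of KO with WT at 0 h and 8 h they are instead given together, after the levels of the single genes. None of the pooled calls of the 10 genes at 0 h held with WT replicates 3 and 4 alone.

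On GRCm38, RefSeq places Nnat at chr2:157560078-157562525 and Gnas at chr2:174284320-174346744. Peg3 lies at chr7:6703892-6730462 and Snrpn at chr7:59982495-60450177. Sgce (chr6:4674350-4747204), Peg10 (chr6:4747306-4760517) and Mest (chr6:30733506-30748466) share chromosome 6. Zdbf2 lies at chr1:63200358-63314576, Plagl1 at chr10:13090832-13131694 and Grb10 at chr11:11930499-12037428.

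The start regions of 4 of the genes are shown first. Nnat and Plagl1 differed most in clone 2, Zdbf2 rose most under α-amanitin, and the Peg3 window is shared with the neighbouring gene Usp29. Sequences are from RefSeq (GRCm38.p6), from 250 bases before to 50 bases after the annotated start, read 5′ to 3′ on the gene's strand. Capitals mark TGCCGC, the hexamer bound by ZFP57 in methylated form, or its reverse complement GCGGCA; both strands were searched. Nnat lies on chromosome 2 (plus strand, chr2:157559828-157560127), Peg3 on chromosome 7 (minus strand, chr7:6730370-6730669), Zdbf2 on chromosome 1 (plus strand, its upstream start, chr1:63200108-63200407) and Plagl1 on chromosome 10 (plus strand, chr10:13090582-13090881).
Nnat: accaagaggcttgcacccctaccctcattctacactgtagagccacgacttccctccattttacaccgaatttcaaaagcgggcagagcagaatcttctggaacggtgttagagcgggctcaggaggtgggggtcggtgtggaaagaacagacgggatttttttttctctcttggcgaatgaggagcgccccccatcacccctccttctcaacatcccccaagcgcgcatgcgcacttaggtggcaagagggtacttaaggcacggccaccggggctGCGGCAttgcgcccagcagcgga
Peg3: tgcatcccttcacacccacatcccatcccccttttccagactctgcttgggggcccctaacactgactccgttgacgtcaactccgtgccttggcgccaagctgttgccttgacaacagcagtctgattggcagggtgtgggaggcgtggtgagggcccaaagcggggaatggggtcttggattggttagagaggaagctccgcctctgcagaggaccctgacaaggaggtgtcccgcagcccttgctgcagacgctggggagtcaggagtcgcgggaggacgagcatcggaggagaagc
Zdbf2: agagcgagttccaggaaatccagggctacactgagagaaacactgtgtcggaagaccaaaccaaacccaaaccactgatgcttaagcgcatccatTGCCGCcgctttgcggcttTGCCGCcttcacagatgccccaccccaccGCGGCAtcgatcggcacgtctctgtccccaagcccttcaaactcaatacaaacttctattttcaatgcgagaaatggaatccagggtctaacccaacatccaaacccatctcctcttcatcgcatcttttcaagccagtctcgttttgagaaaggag
Plagl1: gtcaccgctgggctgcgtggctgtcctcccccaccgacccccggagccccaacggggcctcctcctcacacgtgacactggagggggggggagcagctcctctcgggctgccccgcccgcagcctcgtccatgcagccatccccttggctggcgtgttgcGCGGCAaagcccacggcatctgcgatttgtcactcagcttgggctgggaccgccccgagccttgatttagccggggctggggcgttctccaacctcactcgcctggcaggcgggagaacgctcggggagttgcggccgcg

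RefSeq windows were matched for 8 of the 10 genes, 18 windows in all. At least 1 hexamer stood in 7 of these 18 windows, some of which overlap, and 11.6% of all 32851 promoter windows of this length hold at least 1. The 7 windows belong to Nnat, Zdbf2, Mest, Plagl1, Snrpn and Grb10. The Zdbf2 window holds 3, and 1.53% of all windows hold 2 or more. CpG counts were 17 for Nnat, 13 for Peg3, 15 for the upstream Zdbf2 start and 26 for Plagl1, beside a median of 7 over all windows. These are letter matches within 300 bases, not measured binding or methylation.

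Before α-amanitin, most of the 10 genes were lower in Caprin1 KO than in WT cells. With both clones pooled, 6 of the 10 were called lower at 0 h and 0 higher by edgeR's quasi-likelihood test at a false discovery rate (FDR, Benjamini-Hochberg) under 0.05. Of all 15659 genes tested, 12.2% were called lower and 13.9% higher. Each of the 10 had a difference below 0. The median log2 difference of the 10 genes was -1.15, beside 0.00 over all genes tested. Log2 differences are of KO or clone over WT, and the error is the standard error (SE).

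Nnat, encoding neuronatin, a small membrane proteolipid of the endoplasmic reticulum expressed from the paternal copy, had the largest difference among the 10 genes. At 0 h it stood at 1.30 and 1.35 CPM in clone 2 and at 6.65 CPM in clone 4, against 64.6, 51.0, 41.8 and 42.6 CPM in WT. Neither clone overlapped WT, and clone 2 stood below clone 4. The pooled difference was -4.03 ± 0.585 (FDR 0.00422, edgeR). Raw Nnat counts in clone 2 were between 7 and 40 per library over the 4 times, so its level there has a wide counting error.

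Peg3, Plagl1 and Zdbf2 encode zinc-finger proteins expressed from the paternal copy. Peg3 stood at 772 and 682 CPM in clone 2 and 1627 CPM in clone 4 at 0 h, against 2837, 2637, 2709 and 2585 CPM in WT. Both clones were below every WT library, and the pooled difference was -1.39 ± 0.289 (FDR 0.0112, edgeR). Plagl1, a transcription factor that restrains cell growth, stood at 21.0 and 21.6 CPM in clone 2 and 182 CPM in clone 4, against 327, 206, 295 and 294 CPM in WT. Both clones were below every WT library but far from each other, and the pooled difference of -1.90 ± 0.751 did not pass the test (FDR 0.0966, edgeR). Zdbf2 stood at 64.0 and 63.7 CPM in clone 2 and 149 CPM in clone 4, against 176, 149, 189 and 172 CPM in WT. Only clone 2 was far from WT here: the clone 4 library was just under the lowest WT library, and the pooled test gave -0.90 ± 0.299 (FDR 0.0577, edgeR).

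Peg10 and Sgce start 101 bases apart on chromosome 6 and are read in opposite directions. Peg10, a gene derived from a retrotransposon and required for the placenta in mice, stood at 857 and 847 CPM in clone 2 and 2190.3 CPM in clone 4 at 0 h, against 5295, 4680.2, 4925 and 4745 CPM in WT. The 3 lines did not overlap, and the pooled difference was -1.92 ± 0.340 (FDR 0.00679, edgeR). Peg10 was the most counted gene of the whole library in 6 of the 16 WT libraries; its rank was 1 to 3 in WT, 70 to 88 in clone 2 and 12 to 23 in clone 4. Sgce, encoding the membrane protein ε-sarcoglycan, stood at 27.9 and 28.5 CPM in clone 2 and 29.2 CPM in clone 4, against 44.7, 41.3, 47.7 and 49.9 CPM in WT. Both clones were below every WT library, with a pooled difference of -0.69 ± 0.105 (FDR 0.00428, edgeR).

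Mest, encoding a hydrolase-fold membrane protein and expressed from the paternal copy, stood at 98.4 and 104 CPM in clone 2 and 308 CPM in clone 4, against 605, 586, 565 and 561 CPM in WT at 0 h. The pooled difference was -1.77 ± 0.396 (FDR 0.0157, edgeR), with no overlap between the 3 lines. Snrpn, encoding the spliceosomal protein SmN, stood at 19.2 and 21.6 CPM in clone 2 and 28.3 CPM in clone 4, against 26.0, 27.6, 31.6 and 31.8 CPM in WT. Its clone 4 library lay inside the WT range, and the pooled difference of -0.35 ± 0.157 was not called (FDR 0.129, edgeR).

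Grb10 and Gnas act in receptor signalling. Grb10, encoding an adaptor that restrains insulin and IGF receptor signalling, is expressed from the maternal copy in most mouse tissues and from the paternal copy in neurons. It stood at 279 and 285 CPM in clone 2 and 841 CPM in clone 4, against 903, 789.8, 854 and 813 CPM in WT at 0 h, so that only clone 2 was outside the WT range; the pooled difference was -0.84 ± 0.378 (FDR 0.134, edgeR). Gnas encodes the stimulatory G protein α subunit at a locus that also makes transcripts from the maternal and the paternal copy alone. It stood at 27.2 and 20.2 CPM in clone 2 and 24.2 CPM in clone 4, against 63.6, 52.1, 32.1 and 32.2 CPM in WT. WT replicates 1 and 2 stood well above replicates 3 and 4, and both clones were below either pair. The pooled difference was -0.90 ± 0.260 (FDR 0.0342, edgeR); with WT replicates 1 and 2 alone it was -1.27 and with replicates 3 and 4 alone -0.42 (FDR 0.154, edgeR). The call was also lost without clone 2 replicate 1 or 2, or WT replicate 1 or 2.

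**Figure D1:**
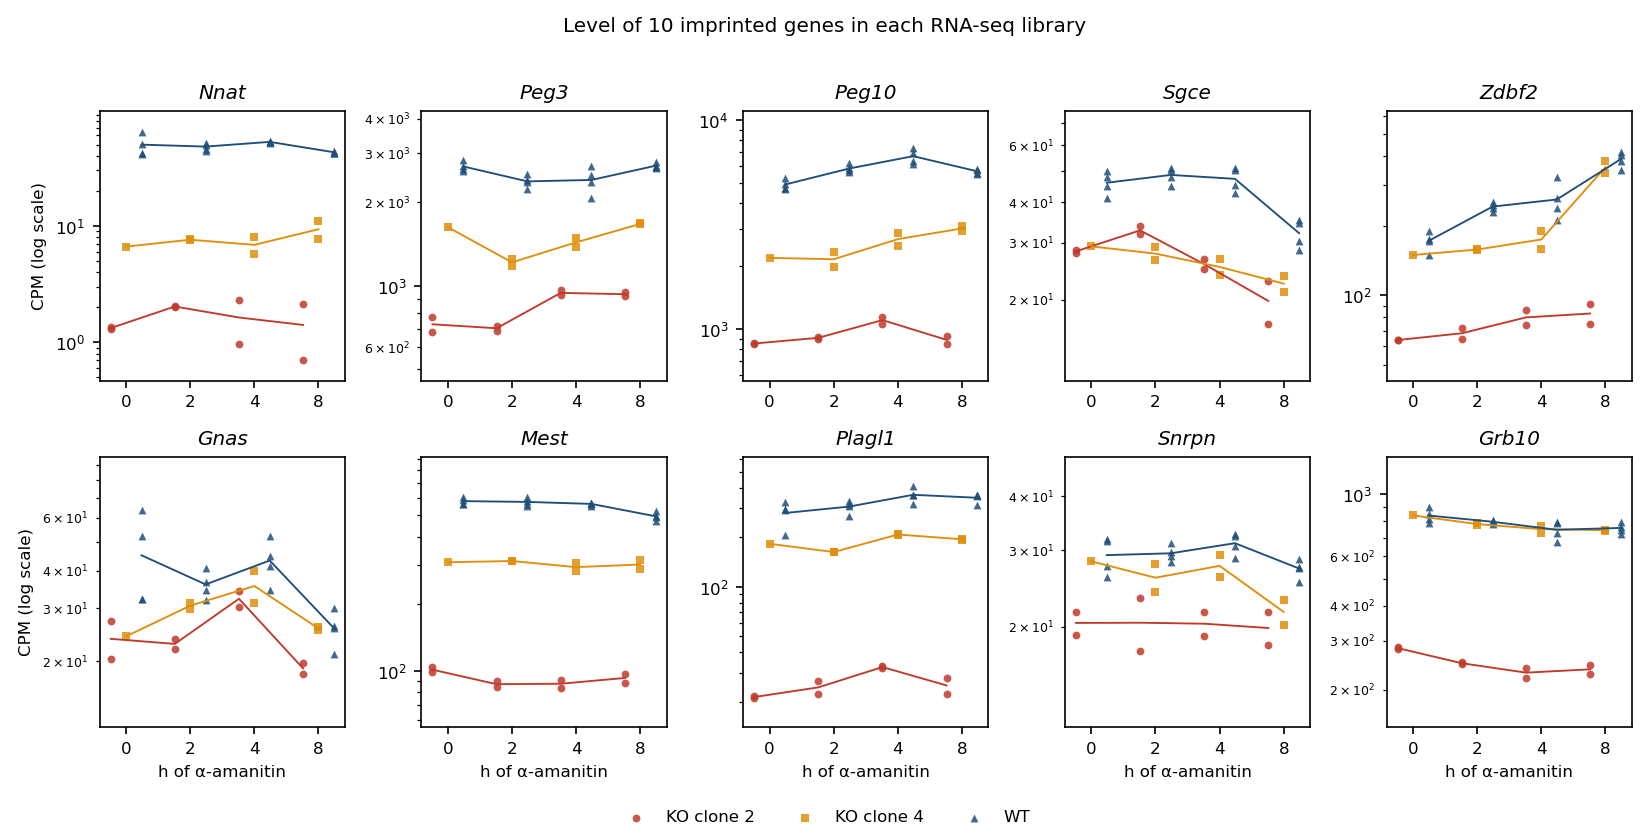
Level of each of the 10 genes, in CPM on a log axis, against hours of α-amanitin; each point is 1 library of KO clone 2 (circles), KO clone 4 (squares) or WT (triangles), and lines join the means. Clone 2 lies below WT for every gene at every time, while clone 4 lies between clone 2 and WT for Nnat, Peg3, Peg10, Mest and Plagl1 and on the WT level for Grb10.

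The pooled calls at 0 h rest on the choice of WT libraries: with WT replicates 3 and 4 alone, 12 genes and 0 of the 10 imprinted genes were called by edgeR, and with replicates 1 and 2 alone 2445 genes were called, without Peg3 and Mest. Without the clone 4 library, all 10 were called lower, while the calls over all genes in either direction went from 4092 to 7582. At 2 h 7 of the 10 genes were called lower (14.6% of all genes), at 4 h 6 (16.9%) and at 8 h 4 (7.06%). None of the 10 was called higher at these times, where 17.0%, 19.4% and 10.3% of all genes were. The 8 h calls were lost when WT replicate 1, 3 or 4 was left out (0 genes left) and fell to 1 gene without WT replicate 2. With either WT pair of 8 h alone, 0 of the 10 were called in that comparison. At 2 h, 4 genes were left without clone 2 replicate 2 or without WT replicate 1, 2 or 4. In this pooled fit the distance between the clones counts as error. The KO libraries also count as separate units, though they come from 2 clones. Pooled p-values thus do not measure the spread over KO clones. The clones were therefore set against WT one by one.

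The comparison of each clone with WT was made in 1 fit of 12 groups (line by time) over all 31 libraries. In clone 2, 10 of 10 genes were called lower at 0 h and at 2 h, and 9 of 10 at 4 h and 8 h; Gnas was the gene not called at both later times. The shares of all genes called lower were 29.4%, 26.2%, 26.6% and 27.0% at 0, 2, 4 and 8 h. Called higher were 0 of the 10, against 30.6%, 25.8%, 28.1% and 26.2% of all genes. The median of the 10 genes was -1.73, -1.79, -1.70 and -1.95 on the log2 scale at these times, beside 0.00, -0.01, 0.00 and -0.01 over all genes. Every one of the 10 genes was below all WT libraries in both clone 2 libraries at each time, as 30.0%, 31.9%, 31.0% and 33.9% of all genes were.

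In clone 4, 7 of the 10 genes were called lower at each time, where 18.4%, 14.2%, 18.6% and 12.2% of all genes were. Called higher were 0 of the 10, with 19.7%, 16.0%, 20.3% and 13.3% of all genes. The median of the 10 was -0.69, -0.85, -0.77 and -0.61 at 0, 2, 4 and 8 h, beside -0.02, -0.01, -0.01 and -0.03 over all genes. Nnat, Peg3, Peg10, Mest, Plagl1 and Sgce were called lower at all 4 times. The other call was Gnas at 0 h, Zdbf2 at 2 h and 4 h, and Snrpn at 8 h. Ranges without overlap below WT were seen for 8, 9, 7 and 7 of the 10 genes, where 32.6%, 24.1%, 25.7% and 26.5% of all genes had them. At 0 h clone 4 rests on 1 library, which the fit takes to vary like the other groups.

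Nnat and Plagl1 had the largest differences of the 10 genes in clone 2 at each time. Nnat differed from WT by -5.19 ± 0.197 at 0 h, -4.55 ± 0.236 at 2 h, -4.98 ± 0.245 at 4 h and -4.97 ± 0.245 at 8 h on the log2 scale. Plagl1 lay between -3.78 and -3.48, then Peg10 between -2.69 and -2.53 and Mest between -2.72 and -2.42. The zinc-finger gene Zdbf2 lay between -2.22 and -1.43, Grb10 between -1.70 and -1.57, and Peg3 between -1.89 and -1.35. Sgce and Snrpn moved less, Sgce between -0.89 and -0.57 and Snrpn between -0.61 and -0.46. Gnas differed by -0.85 ± 0.205 at 0 h and -0.45 ± 0.246 at 8 h (FDR 0.134, edgeR).

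In clone 4, Nnat differed from WT by -2.87 ± 0.210 at 0 h, -2.66 ± 0.187 at 2 h, -2.91 ± 0.182 at 4 h and -2.20 ± 0.169 at 8 h. Peg10 lay between -1.44 and -0.91, Peg3 between -0.97 and -0.70, Mest between -0.94 and -0.72, Plagl1 between -0.92 and -0.61, and Sgce between -0.91 and -0.52. Grb10 lay between -0.03 and 0.01 and was called at no time (lowest FDR 0.796, edgeR), with either sign among alternatives. The Gnas call at 0 h (-0.84 ± 0.271, FDR 0.0186, edgeR) was lost without WT replicate 2, and both it and the Plagl1 call at 0 h were lost when the 3 lines of that time were fitted alone (FDR 0.122 and 0.0671). The Snrpn call at 8 h (-0.33 ± 0.112, FDR 0.0267, edgeR) was lost without clone 4 replicate 2 or WT replicate 1 of that time, and with either WT pair of 8 h alone (FDR 0.0958 and 0.0662). In clone 2, Snrpn at 2 h was not called without clone 2 replicate 1, nor at 8 h without clone 2 replicate 2, and Gnas at 2 h was not called without either clone 2 replicate or WT replicate 1.

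**Figure D2:**
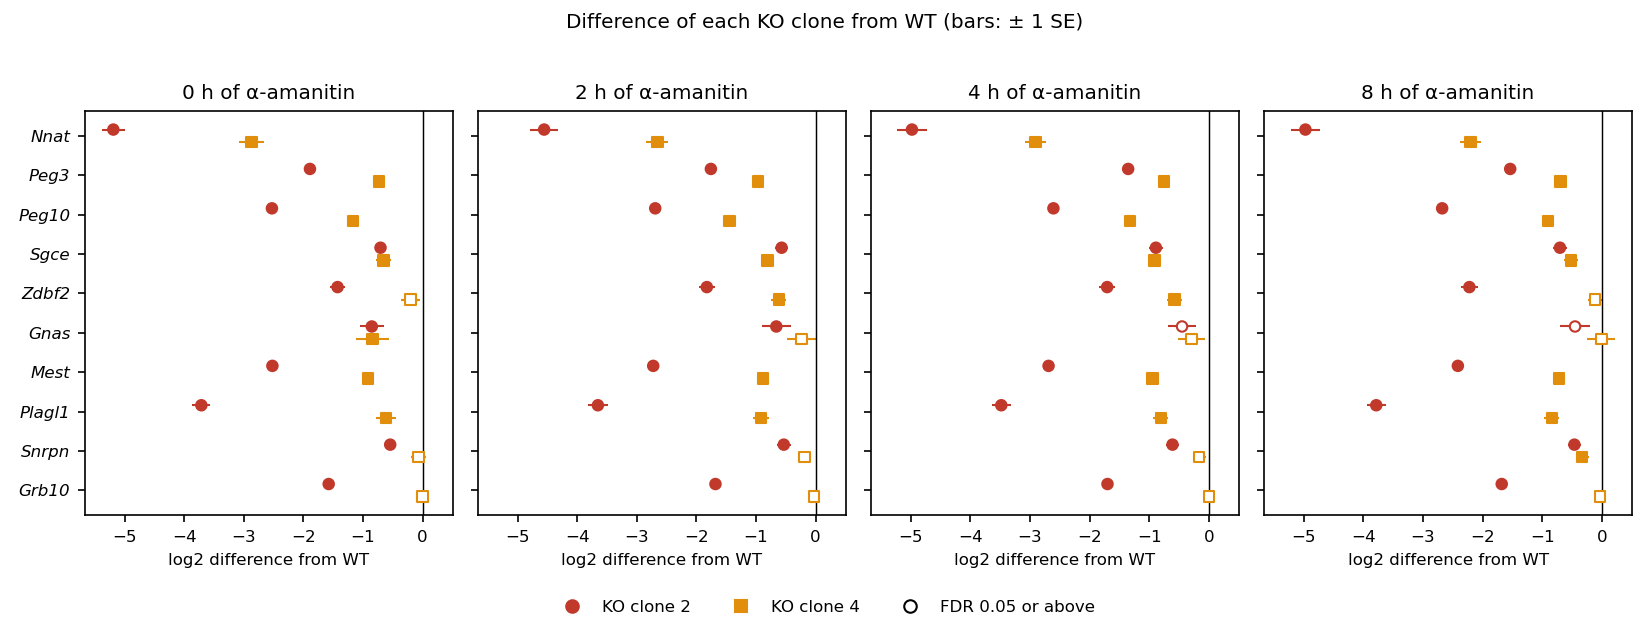
Log2 difference of KO clone 2 (circles) and KO clone 4 (squares) from WT for each gene, in 1 panel per time, with bars of ± 1 SE from the joint edgeR fit; filled points have an FDR under 0.05. Nnat is farthest from 0 in both clones at every time, and in each panel the clones part most for Plagl1 and then for Nnat.

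The clones were then compared with each other over the 4 times. In clone 4, 8 of the 10 genes were higher than in clone 2, where 32.4% of all genes were called higher and 32.5% lower, and the median of the 10 was 1.42 on the log2 scale, beside -0.01 over all genes. The difference of clone 4 over clone 2 was 2.86 ± 0.0854 for Plagl1, 2.27 ± 0.165 for Nnat, 1.72 ± 0.0392 for Mest and 1.65 ± 0.0397 for Grb10. It was 1.42 for both Peg10 (SE 0.0456) and Zdbf2 (SE 0.0769), 0.85 ± 0.0447 for Peg3 and 0.35 ± 0.0666 for Snrpn. Each of these 8 had an FDR of 2.07e-05 or lower (edgeR). Sgce did not pass the test, at -0.01 ± 0.0664 (FDR 0.952), nor did Gnas, at 0.26 ± 0.139 (FDR 0.108).

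Over all times, the levels ordered the lines the same way for Nnat, Peg3, Peg10 and Mest: the clone 2 libraries were lowest, the clone 4 libraries between, and the WT libraries highest, with no overlap between lines. The share of all genes with this order was not counted. Nnat ranged between 0.701 and 2.30 CPM in clone 2 (median 1.69), between 5.79 and 11.1 CPM in clone 4 (median 7.69) and between 41.8 and 64.6 CPM in WT (median 48.2). For Sgce and Gnas the ranges of all 3 lines overlapped over the whole experiment. Levels are not compared between genes per length, because the deposited gene length exceeds the genomic span of Nnat (8448 against 2448 bases) and Peg10 (19889 against 13212 bases).

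Under α-amanitin the 10 genes went different ways. CPM gives a gene's share of the remaining RNA, so a gene that rises is one whose share grew; the amount of RNA per cell and the block itself were not measured. In WT cells, 3 of the 10 were called higher at 8 h than at 0 h (25.7% of all genes) and 4 lower (25.4%). At 2 h the counts were 2 higher (14.1%) and 1 lower (13.7%), and at 4 h 3 higher (24.8%) and 2 lower (27.4%). The median of the 10 was -0.01, 0.06 and -0.13 at 2, 4 and 8 h, beside -0.01, -0.04 and 0.01 over all genes.

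Zdbf2 rose most among the 10. In WT it stood at 176, 149, 189 and 172 CPM at 0 h, at 228, 255, 239.5 and 245 CPM at 2 h, at 211, 239, 265 and 325 CPM at 4 h and at 381, 405, 349.9 and 418 CPM at 8 h. All later WT libraries were above the 0 h range, and the changes against 0 h were 0.50, 0.60 and 1.18 (SE 0.0999, 0.0999 and 0.0993; FDR 6.11e-10 at 8 h, edgeR). The clone 4 libraries held 149 CPM at 0 h, 156 and 159 CPM at 2 h, 189.9 and 159 CPM at 4 h and 337 and 380.3 CPM at 8 h, a rise of 1.27 ± 0.177 over 8 h (FDR 1.47e-05, edgeR). The clone 2 libraries held 64.0 and 63.7 CPM at 0 h, 64.8 and 71.9 CPM at 2 h, 74.1 and 86.0 CPM at 4 h and 75.3 and 91.1 CPM at 8 h, a change of 0.38 ± 0.147 that did not pass the test (FDR 0.0529, edgeR).

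The change of Zdbf2 over 8 h differed between clone 2 and WT: clone 2 minus WT was -0.80 ± 0.177 (FDR 0.00547, edgeR), a call lost without clone 2 replicate 1 at 8 h (FDR 0.0677). Clone 4 minus WT was 0.09 ± 0.195 (FDR 0.833). Peg3 also differed in clone 2, where it was 919 and 947 CPM at 8 h and 772 and 682 CPM at 0 h, against 2789, 2662, 2677 and 2699.8 CPM in WT at 8 h and 2837, 2637, 2709 and 2585 CPM in WT at 0 h. Its change was 0.36 ± 0.0848 in clone 2 and 0.01 ± 0.0597 in WT, and clone 2 minus WT was 0.35 ± 0.104 (FDR 0.0309, edgeR). This difference lost its call without clone 2 replicate 2 at 0 h, clone 2 replicate 1 or 2 at 8 h, or WT replicate 2 at 8 h (highest FDR 0.252), and with either WT pair of 8 h alone (FDR 0.0862 and 0.0711), and the change in clone 2 alone lost its call without clone 2 replicate 2 at 0 h (FDR 0.0631). For clone 2 minus WT, 3.0% of all genes were called higher and 4.42% lower. For clone 4 minus WT, 0 of the 10 genes were called in either direction, with 1.81% of all genes called higher and 2.28% lower. DESeq2 also called 0. In edgeR, 3 of the 10 (Nnat, Peg10 and Gnas) had an unadjusted p under 0.05, as did 3409 of all 15850 genes tested.

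Sgce and Gnas fell in WT. Sgce stood at 35.2, 28.4, 34.4 and 30.3 CPM in WT at 8 h, against 44.7, 41.3, 47.7 and 49.9 CPM in WT at 0 h, a change of -0.52 ± 0.0829 (FDR 3.09e-06, edgeR). Clone 2 gave the same size, -0.52 ± 0.122 (FDR 0.00147), which was not called without its replicate 2 at 8 h, and clone 4 gave -0.38 ± 0.143 (FDR 0.0544). Gnas stood at 21.1, 26.1, 25.8 and 30.0 CPM in WT at 8 h, against 63.6, 52.1, 32.1 and 32.2 CPM in WT at 0 h. Its change was -0.74 ± 0.180 (FDR 0.00169, edgeR), -1.11 with WT replicates 1 and 2 alone at 0 h and -0.31 with replicates 3 and 4 alone.

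Peg10 rose in WT at 2, 4 and 8 h, with changes of 0.26, 0.45 and 0.21 (SE 0.0607, 0.0608 and 0.0607; FDR 0.00146, 1.08e-07 and 0.00408, edgeR), and by 0.47 ± 0.107 over 8 h in clone 4 (FDR 0.00175). Plagl1 rose in WT by 0.38 ± 0.0996 at 4 h and 0.32 ± 0.0992 at 8 h (FDR 0.00273 and 0.0102); the call at 8 h was lost with WT replicates 3 and 4 alone at 8 h (FDR 0.0858). The other changes called in WT were smaller: Mest was -0.23 ± 0.0501 at 8 h, Grb10 -0.17 ± 0.0525 at 4 h and -0.15 ± 0.0524 at 8 h, and Peg3 -0.18 ± 0.0598 at 2 h and -0.16 ± 0.0598 at 4 h. The Grb10 call at 8 h was lost without WT replicate 1 at 0 h or WT replicate 4 at 8 h, or with WT replicates 1 and 2 alone at 8 h (FDR 0.151), and that at 4 h without WT replicate 2 at 4 h. The Peg3 call at 2 h was lost without WT replicate 1 at 0 h or replicate 3 at 2 h, and that at 4 h without WT replicate 1 at 0 h or replicate 1 or 2 at 4 h; both were lost with WT replicates 3 and 4 alone at 0 h (FDR 0.0521 and 0.0556). Nnat and Snrpn were called at no time in WT, and Nnat stood at 42.8, 42.5, 44.4 and 42.4 CPM at 8 h.

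In the clones, fewer of the 10 were called over 8 h. In clone 2 the share of Peg3 grew (1 of 10 higher, 12.6% of all genes), while Sgce and Grb10 fell (2 of 10 lower, 15.8%). Grb10 fell by 0.25 on the log2 scale there (SE 0.0751, FDR 0.0107, edgeR), a call lost without clone 2 replicate 2 at 0 h or replicate 1 at 8 h. In clone 4 Zdbf2 and Peg10 were higher (2 of 10, 8.57%) and 0 lower (10.9%).

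**Figure D3:**
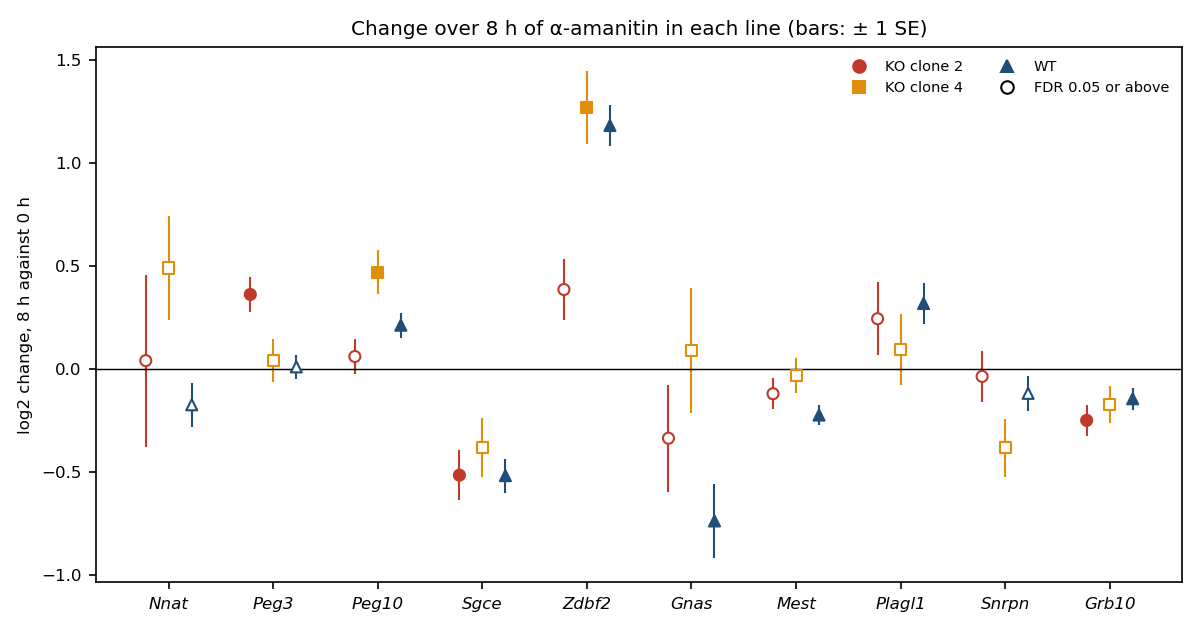
Log2 change between 8 h and 0 h of α-amanitin for each gene in KO clone 2 (circles), KO clone 4 (squares) and WT (triangles), with bars of ± 1 SE from the joint edgeR fit; filled points have an FDR under 0.05. Zdbf2 stands highest of the 10 genes in each line, at 0.38 in clone 2 (open point, FDR 0.0529), 1.27 in clone 4 and 1.18 in WT, and Sgce is below 0 in all 3 lines.

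Genes listed as neighbours of the 10, at differing distances along the chromosome, were set out next, since imprinted genes are regulated in clusters. Of 29 listed neighbours, 23 were tested at 0 h in the pooled comparison; 9 were lower (12.2% of all genes) and 0 higher (13.9%), with a median of -0.35; without either clone 2 library, or without WT replicate 1, 3 or 4, the lower count was 5. In clone 2, 18 of 24 were lower (29.4% of all genes) and 0 higher (30.6%) at 0 h, with a median of -0.83. In clone 4, 11 of 24 were lower (18.4%) and 2 higher (19.7%), with a median of -0.30. Several of these genes are themselves imprinted.

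Both listed neighbours of Peg3 were lower with it. Usp29, a ubiquitin-specific protease gene whose start lies 96 bases from Peg3 on the other strand, shares 263 bases of its promoter window with the Peg3 window printed above. Usp29 stood at 6.45 and 6.98 CPM in clone 2 and 17.3 CPM in clone 4 at 0 h, against a range of 32.0 to 41.4 CPM in WT. It differed from WT by -2.46 ± 0.120 in clone 2 and -1.10 ± 0.141 in clone 4 (both called, edgeR). Zim1, a zinc-finger gene 7351 bases from Peg3 that is expressed from the maternal copy, differed by -2.02 ± 0.0993 in clone 2 and -0.43 ± 0.115 in clone 4 (both called).

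Nnat lies within the span of Blcap, a gene named here after its values were seen. Blcap stood at 37.4 to 38.7 CPM in clone 2 and 46.5 CPM in clone 4, against 37.6 to 43.1 CPM in WT at 0 h. Its difference was -0.08 ± 0.0846 in clone 2 and 0.21 ± 0.107 in clone 4 (neither called, edgeR), beside -5.19 and -2.87 for Nnat. Near Plagl1, Phactr2, which encodes a phosphatase and actin regulator, was lower in both clones, by -1.56 ± 0.0857 in clone 2 and -0.66 ± 0.105 in clone 4, while Ltv1 and Sf3b5, also named after their values were seen, were near WT in clone 2 at -0.07 ± 0.0782 and -0.02 ± 0.101. In clone 4 these were 0.38 ± 0.0974 and -0.46 ± 0.136 (both called). The imprinted gene Ndn lies farther along chromosome 7 (chr7:62348277-62349928) than Snrpn, which ends at 60450177. Ndn differed by -1.40 ± 0.103 in clone 2 and -0.65 ± 0.128 in clone 4 (both called). Ppp1r9a, at chr6:4902872-5165661 on the chromosome of Peg10, differed by -1.36 ± 0.0831 in clone 2 and -0.73 ± 0.105 in clone 4.

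The strand setting of the counting is not given in the sources used here, so reads of Nnat and Blcap, of Mest and Copg2, or of Zdbf2 and Gpr1, whose spans overlap, may have been shared. Snurf, which shares a locus with Snrpn, is listed at 0 counts in every library, so the Snrpn row may hold its reads.

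**Figure D4:**
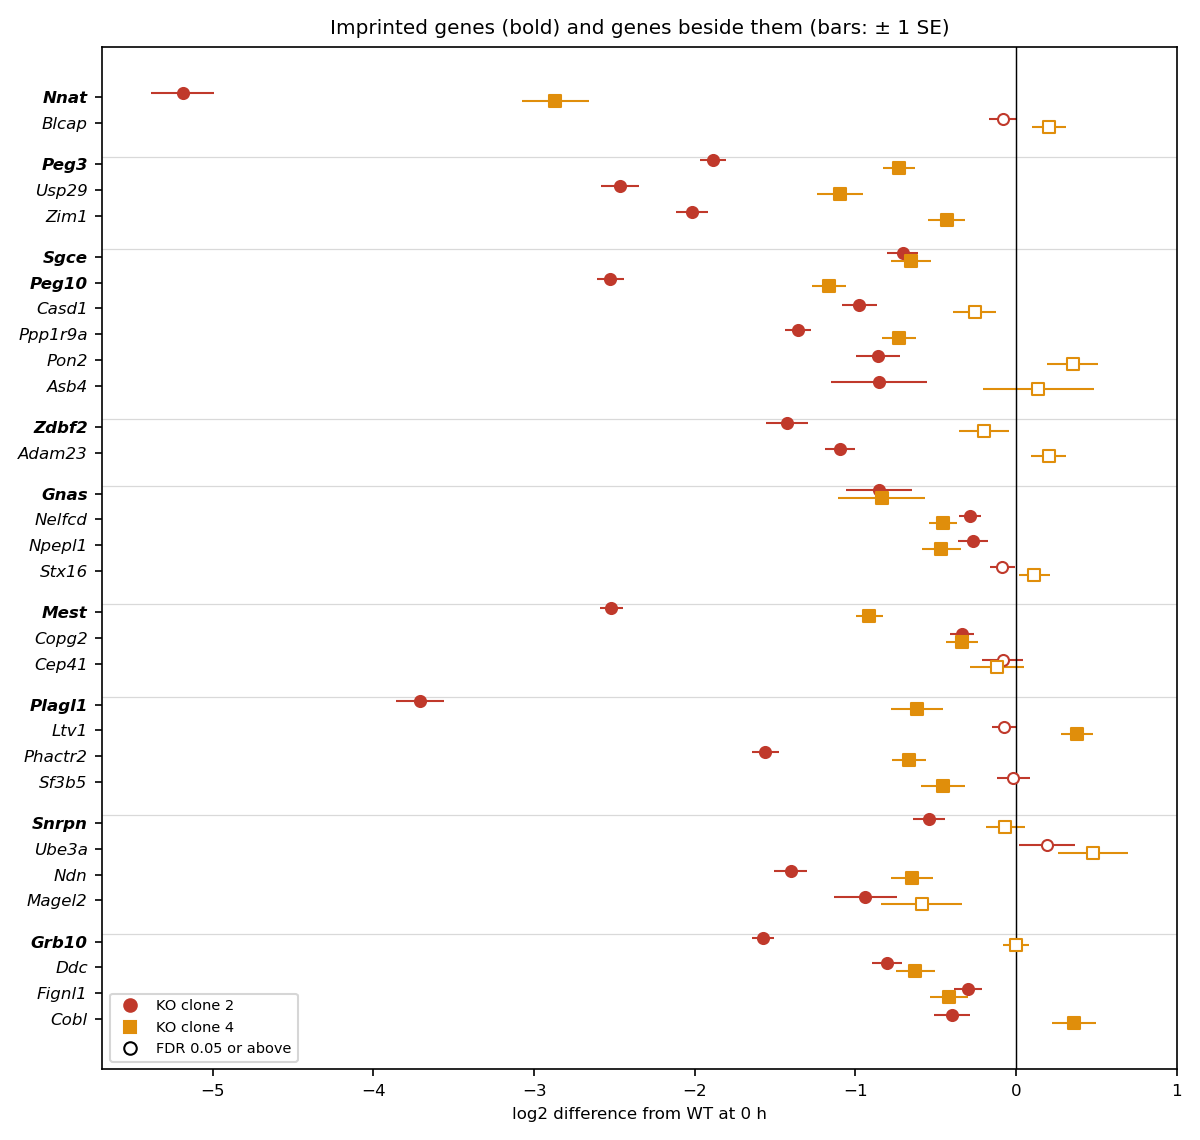
Log2 difference of KO clone 2 (circles) and KO clone 4 (squares) from WT at 0 h for the 10 imprinted genes (bold) and for their tested neighbours with a mean of at least 1 CPM, grouped by locus and ordered by distance, with bars of ± 1 SE; filled points have an FDR under 0.05. Usp29 and Zim1 lie with Peg3 below 0 in both clones, whereas Blcap lies near 0 beside Nnat.

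A wider list of 69 other imprinted genes, which holds several of these neighbours, was examined in the same way. Of 61 tested at 0 h in the pooled comparison, 7 were higher (13.9% of all genes) and 23 lower (12.2%), with a median of -0.43. In clone 2, 13 were higher (30.6%) and 42 lower (29.4%), with a median of -0.80. In clone 4, 10 were higher (19.7%) and 25 lower (18.4%), with a median of -0.32. The pooled lower count was 14 without either clone 2 library, and the higher count in clone 2 was 8 without clone 2 replicate 2. By size, the pooled calls were led by Calcr, the calcitonin receptor gene, at -2.95 ± 0.376, the growth factor genes Dlk1 at -2.12 ± 0.380 and Igf2 at -1.95 ± 0.279, and on the other side Htr2a, a serotonin receptor gene, at 3.07 ± 0.582.

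Factors that keep or write imprints, listed together with the DNA demethylation genes Tet1 and Tet2, were less uniform. Of 12 tested at 0 h in the pooled comparison, 1 was higher (13.9% of all genes) and 2 lower (12.2%). Dnmt3l, a cofactor of de novo DNA methylation, was higher at 1.36 ± 0.129 (FDR 0.00134, edgeR), and the DNA methyltransferase genes Dnmt3a and Dnmt1 were each lower, both at -0.51 (SE 0.116 and 0.131); these lower calls were both lost without either clone 2 library, and without the clone 4 library 2 genes were called higher. At 0 h 2 of the 12 were higher and 4 lower in clone 2 (30.6% and 29.4% of all genes), and 4 were higher and 4 lower in clone 4 (19.7% and 18.4%). Among them Zfp57 was higher in clone 2, at 0.45 ± 0.0717, and Trim28 lower in clone 4, at -0.33 ± 0.104.

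Markers of cell types also differed between the lines. Summed over 14 primitive and parietal endoderm markers, the level was 60268 to 69865 CPM in clone 2 and 22096 to 29854 CPM in clone 4, against 15328 to 18788 CPM in WT. All 14 were called higher in the pooled comparison at 0 h (13.9% of all genes), as were 14 in clone 2 (30.6%) and 13 in clone 4 (19.7%). Over 12 neural markers it was 130 to 180.3 CPM in clone 2 and 405 to 524 CPM in clone 4, against 339 to 512 CPM in WT. Nes had a large part in this sum, with means of 297 CPM in WT, 49.5 CPM in clone 2 and 286 CPM in clone 4. Ncam1 went the other way, at 61.1 CPM in WT, 67.9 CPM in clone 2 and 95.4 CPM in clone 4. So did Sox1, at 2.18, 3.66 and 2.88 CPM in the same order. Elavl3 was not lower in clone 2, at 2.19, 2.24 and 1.76 CPM. Of 11 tested at 0 h, 1 was higher (13.9% of all genes) and 0 lower (12.2%) in the pooled comparison. In clone 2, 1 was higher (30.6%) and 7 lower (29.4%), with a median of -1.38, and in clone 4 the median was -0.01. Dcx was at 0 counts in 5 of the 8 clone 2 libraries, and Neurog2 in 7 of the 8 clone 2, 3 of the 7 clone 4 and 7 of the 16 WT libraries. The 12 fibroblast feeder markers summed to 689 to 995 CPM in clone 2 and 2672 to 3289 CPM in clone 4, against 952 to 1569 CPM in WT, with Lum at 0 counts in 4 WT libraries. The sum and the single genes differ in direction in clone 2. There 7 of the 12 feeder markers were higher at 0 h (30.6% of all genes) and 3 lower (29.4%), with a median of 0.78. In clone 4, 9 were higher (19.7%) and 2 lower (18.4%), with a median of 2.08. The lower count in clone 4 was 1 without WT replicate 1 or 2. The 10 pluripotent ESC markers summed to 1366 to 1981 CPM in clone 2 and 913 to 1357 CPM in clone 4, against 732 to 1015 CPM in WT. At 0 h, 8 of them were higher in clone 2 (30.6% of all genes) and 1 lower (29.4%), with a median of 0.59, and in clone 4 the median was 0.35. The 9 trophoblast markers summed to 525 to 663 CPM in clone 2 and 501 to 729 CPM in clone 4, against 739.7 to 1021 CPM in WT, with Elf5 at 0 counts in 5 WT and 3 clone 4 libraries. The keratin genes Krt8 and Krt18 held most of this sum, with means of 389 and 420 CPM in WT. Of 8 tested at 0 h in clone 2, 1 was higher (30.6% of all genes) and 6 lower (29.4%), with a median of -1.34, and in clone 4 the median was -0.89. Eomes went up, with means of 8.81 CPM in WT, 19.7 CPM in clone 2 and 13.1 CPM in clone 4. The part of these differences in the levels of the imprinted genes was not tested.

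Across the 31 libraries, the genes whose log2 CPM ran most like Nnat among 10990 genes were Sort1 (Pearson r = 0.983), Krt7 (0.978), Peg10 (0.976), Efs (0.975) and Mapk8ip1 (0.974). For Peg3 they were Dchs1 (0.980), Frem2 (0.977), Fras1 (0.975), Ssbp3 (0.971) and Peg10 (0.970). The libraries fall into 3 lines, so that these values mostly describe the distance between lines.

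The RNA immunoprecipitation of CAPRIN1 is represented by a pair of deposited gene lists, which give names alone, with no value, direction or threshold. The authors' list named CNT against RA holds 5 of the 10 genes (Peg3, Peg10, Zdbf2, Gnas and Mest), and 2063 of all 15850 genes tested. Their list named 2I against RA holds the same 5 with Plagl1 and Grb10 added, 7 of 10, and 2358 of the genes tested. Among genes with a mean of at least 26.1 CPM, the lowest mean over all libraries among the 10, 6886 in all, 1787 and 1896 were in the lists. Nnat, Sgce and Snrpn were in neither list.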

How the data were processed

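RNA was measured by poly(A) sequencing (KAPA Stranded mRNA-Seq, NextSeq500) in 31 libraries. The authors deposited raw read counts per gene in 4 tables, 1 per time; the submitters' processing notes name FastQC 0.11.9, STAR 2.4.0.1, TopHat, Cufflinks, Cuffdiff and DESeq2 and the builds GRCm38 and mm10. How reads were counted, on which strand and with which annotation is not stated there. The authors' RNA immunoprecipitation lists hold gene symbols alone. One clone 4 sample at 0 h has no column in the tables and is not analysed here. Repeated lines of 105 identifiers held the same counts and were kept once (110 lines dropped). CPM values were computed here with TMM library sizes, so a few abundant genes can shift them. Tests were edgeR 4.0.16 quasi-likelihood fits (filterByExpr, TMM, R 4.3.3) on the deposited counts: KO over WT within each time with genotype as the only term, and 1 fit of 12 groups (19 residual degrees of freedom) for all other comparisons, 20 comparisons in all. Adjusted p-values are Benjamini-Hochberg over all genes tested. Library totals are given with the results; counting error is smallest for Peg10 and Peg3 and largest for Nnat in clone 2. Scripts were tested on simulated data. Alternatives were DESeq2 1.42.0, RLE scaling, no filter on low counts, a replicate block, other sets of libraries, and each library left out. Named by rule were the 10 genes, the 5 genes most like Nnat and Peg3 with a mean of at least 5 CPM, and of each list at most the 4 called genes with the largest difference at a mean of at least 1 CPM. The members and lists were chosen with earlier results of these data known. IDs of 8 of the 10 genes matched the reference table; Peg3 and Gnas were placed by symbol (RefSeq GRCm38.p6).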

Additional observations from a re-analysis of the deposited data

Results flagged for a closer look

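In WT at 8 h, Plagl1 stood at 312 CPM in replicate 3, apart from the 355 to 362 CPM of the other 3 libraries. This was the only one of 40 groups tested in which a library stood so far from the others, and chance gives about 1 in 20. The change over 8 h of α-amanitin differed between clone 2 and WT for Peg3, by 0.35 on the log2 scale (FDR 0.0309, edgeR). That call was lost with either WT pair of 8 h alone. For Zdbf2 the change differed by -0.80 (FDR 0.00547, edgeR), a call lost without clone 2 replicate 1 at 8 h. Clone 4 and clone 2, both labelled KO, differed from each other over the 4 times for 8 genes. Clone 4 over clone 2 was 2.86 for Plagl1, 2.27 for Nnat, 1.72 for Mest and 1.65 for Grb10. It was 1.42 for Peg10, 1.42 for Zdbf2, 0.85 for Peg3 and 0.35 for Snrpn. The same lines differ in Caprin1 RNA, which was 989 to 1223 CPM in clone 4 and 106 to 196 CPM in clone 2, and in the endoderm marker sum; the part of either in these differences was not tested.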

How the results depend on the processing

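In the fit of 12 groups, clone 2 and clone 4 over WT kept direction and call for Nnat, Peg3, Peg10, Mest and Sgce in every alternative run. Of the log2 values of single genes that changed sign, 1 was called, Gnas in WT at 4 h with WT replicates 1 and 2 alone at 0 h; the cause was not tested. With DESeq2 in place of edgeR, the calls were 7 of the 10 lower for KO over WT at 8 h, 1 of the 10 lower for WT 4 h over 0 h and 2 of the 10 higher for clone 2 8 h over 0 h. Signs then turned to 0.00680 for Gnas (clone 4 over WT at 8 h), -0.0109 for Gnas (WT 4 h over 0 h), 0.00620 for Mest (WT 2 h over 0 h), 0.0125 for Snrpn (WT 2 h over 0 h) and -0.00380 for Grb10 (clone 4 over WT at 4 h) on the log2 scale. With RLE scaling in place of TMM, the calls were 1 of the 10 lower for WT 4 h over 0 h and 2 of the 10 higher for clone 2 8 h over 0 h. Log2 values turned to 0.00130 for Nnat (WT 2 h over 0 h), 0.00271 for Gnas (clone 4 over WT at 8 h), 0.00435 for Mest (WT 2 h over 0 h), 0.0133 for Snrpn (WT 2 h over 0 h) and -0.00255 for Grb10 (clone 4 over WT at 4 h) on the log2 scale. With no filter on low counts, the calls were 1 of the 10 lower for KO over WT at 8 h, 2 of the 10 higher for clone 2 8 h over 0 h and 2 of the 10 lower for clone 4 8 h over 0 h. Sign changes gave -0.0371 for Peg3 (WT 8 h over 0 h), -0.0212 for Peg3 (clone 4 8 h over 0 h) and -0.00867 for Gnas (WT 4 h over 0 h) on the log2 scale. With the replicate number as a block, the calls were 0 of all genes for KO over WT at 0 h, 0 of the 10 lower for KO over WT at 0 h, 2 of all genes for KO over WT at 2 h, 0 of the 10 lower for KO over WT at 2 h, 0 of all genes for KO over WT at 4 h and 0 of the 10 lower for KO over WT at 4 h. They were also 0 of all genes for KO over WT at 8 h, 0 of the 10 lower for KO over WT at 8 h, 2 of the 10 higher for clone 2 8 h over 0 h, 2 of the 10 lower for clone 4 8 h over 0 h and 1044 of all genes for 8 h change of clone 4 minus WT. Log2 values turned to 0.00347 for Sgce (clone 4 over clone 2 over 4 times) on the log2 scale. With the 3 lines of 1 time fitted alone, the calls were 2719 of all genes for clone 4 over WT at 0 h. Sign changes gave 0.0160 for Gnas (clone 4 over WT at 8 h) and 0.00258 for Grb10 (clone 4 over WT at 8 h) on the log2 scale. With the clones pooled in 8 groups, the calls were 1722 of all genes for WT 2 h over 0 h, 0 of the 10 lower for WT 2 h over 0 h, 0 of the 10 higher for WT 2 h over 0 h, 5062 of all genes for WT 4 h over 0 h, 0 of the 10 lower for WT 4 h over 0 h and 0 of the 10 higher for WT 4 h over 0 h. They were also 4442 of all genes for WT 8 h over 0 h, 2 of the 10 lower for WT 8 h over 0 h and 1 of the 10 higher for WT 8 h over 0 h. Log2 values turned to -0.0401 for Gnas (WT 4 h over 0 h) and 0.00943 for Snrpn (WT 2 h over 0 h) on the log2 scale. With the libraries of that line alone, the calls were 3 of the 10 higher for clone 2 8 h over 0 h, 4937 of all genes for clone 4 8 h over 0 h and 3 of the 10 lower for clone 4 8 h over 0 h. With that clone and WT alone, the calls were 242 of all genes for 8 h change of clone 4 minus WT. With WT libraries alone (chosen after seeing the data), the calls were 0 of the 10 lower for WT 2 h over 0 h and 1 of the 10 lower for WT 4 h over 0 h. With WT replicates 1 and 2 alone at 0 h (chosen after seeing the data), the calls were 2445 of all genes for KO over WT at 0 h, 6679 of all genes for WT 2 h over 0 h, 2 of the 10 lower for WT 2 h over 0 h, 4945 of all genes for 8 h change of clone 2 minus WT, 2 of the 10 higher for 8 h change of clone 2 minus WT and 4974 of all genes for 8 h change of clone 4 minus WT. They were also 2 of the 10 higher for 8 h change of clone 4 minus WT. The sign changed to -0.0670 for Nnat (WT 4 h over 0 h), -0.0154 for Peg3 (WT 8 h over 0 h), -0.12 for Sgce (8 h change of clone 2 minus WT), -0.0149 for Zdbf2 (8 h change of clone 4 minus WT), -0.34 for Gnas (WT 4 h over 0 h, FDR 0.0304) and 0.0559 for Snrpn (clone 4 over WT at 0 h) on the log2 scale. They also turned to 0.12 for Snrpn (WT 2 h over 0 h), 0.00147 for Snrpn (WT 8 h over 0 h), -0.0366 for Snrpn (8 h change of clone 2 minus WT) and -0.00753 for Grb10 (clone 4 over WT at 0 h) on the log2 scale. With WT replicates 3 and 4 alone at 0 h (chosen after seeing the data), the calls were 12 of all genes for KO over WT at 0 h, 0 of the 10 lower for KO over WT at 0 h, 0 of the 10 lower for WT 2 h over 0 h, 1 of the 10 lower for WT 4 h over 0 h and 5 of the 10 higher for WT 4 h over 0 h. Values of the other sign were 0.19 for Nnat (WT 2 h over 0 h), 0.0286 for Nnat (WT 8 h over 0 h), -0.00273 for Sgce (WT 2 h over 0 h), -0.0266 for Sgce (WT 4 h over 0 h), 0.16 for Gnas (WT 2 h over 0 h) and -0.0367 for Gnas (8 h change of clone 2 minus WT) on the log2 scale. They also turned to 0.0282 for Mest (WT 2 h over 0 h), 0.00869 for Plagl1 (8 h change of clone 2 minus WT) and -0.0320 for Snrpn (WT 4 h over 0 h) on the log2 scale. With WT replicates 1 and 2 alone at 8 h (chosen after seeing the data), the calls were 0 of all genes for KO over WT at 8 h, 0 of the 10 lower for KO over WT at 8 h, 0 of the 10 higher for 8 h change of clone 2 minus WT and 212 of all genes for 8 h change of clone 4 minus WT. Sign changes gave 0.12 for Gnas (clone 4 over WT at 8 h) on the log2 scale. With WT replicates 3 and 4 alone at 8 h (chosen after seeing the data), the calls were 1 of all genes for KO over WT at 8 h, 0 of the 10 lower for KO over WT at 8 h, 703 of all genes for 8 h change of clone 2 minus WT, 0 of the 10 higher for 8 h change of clone 2 minus WT and 172 of all genes for 8 h change of clone 4 minus WT. Values of the other sign were -0.000508 for Peg3 (WT 8 h over 0 h), -0.0101 for Sgce (8 h change of clone 2 minus WT), 0.00135 for Grb10 (clone 4 over WT at 8 h) and 0.000207 for Grb10 (8 h change of clone 4 minus WT) on the log2 scale. Leaving out 1 library at a time, the calls ranged over 1734 to 7582 of all genes for KO over WT at 0 h, 5 to 10 of the 10 lower for KO over WT at 0 h, 4 to 8 of the 10 lower for KO over WT at 2 h, 2517 to 4792 of all genes for KO over WT at 2 h and 3069 to 5506 of all genes for KO over WT at 4 h. Such ranges of calls were also 619 to 3589 of all genes for KO over WT at 8 h, 0 to 6 of the 10 lower for KO over WT at 8 h, 2992 to 4724 of all genes for clone 4 over WT at 2 h, 2525 to 3819 of all genes for clone 4 over WT at 8 h and 0 to 1 of the 10 lower for WT 2 h over 0 h. Such ranges of calls were also 0 to 2 of the 10 lower for WT 4 h over 0 h, 2777 to 3174 of all genes for clone 2 8 h over 0 h, 1 to 2 of the 10 lower for clone 2 8 h over 0 h, 0 to 2 of the 10 higher for clone 2 8 h over 0 h and 1971 to 2057 of all genes for clone 4 8 h over 0 h. Such ranges of calls were also 564 to 1955 of all genes for 8 h change of clone 2 minus WT, 0 to 1 of the 10 higher for 8 h change of clone 2 minus WT, 0 to 1 of the 10 lower for 8 h change of clone 2 minus WT and 168 to 1718 of all genes for 8 h change of clone 4 minus WT. Log2 values that changed sign ranged over -0.0915 to 0.0888 for Nnat (WT 2 h over 0 h), -0.90 to 0.68 for Nnat (clone 2 8 h over 0 h), -0.73 to 0.86 for Nnat (8 h change of clone 2 minus WT), -0.0104 to 0.0341 for Peg3 (WT 8 h over 0 h), -0.00163 to 0.12 for Peg10 (clone 2 8 h over 0 h) and -0.0586 to 0.0505 for Sgce (clone 4 over clone 2 over 4 times). Further such ranges were -0.00457 to 0.10 for Sgce (WT 4 h over 0 h), -0.22 to 0.21 for Sgce (8 h change of clone 2 minus WT), -0.00357 to 0.17 for Zdbf2 (8 h change of clone 4 minus WT), -0.0901 to 0.0767 for Gnas (clone 4 over WT at 8 h), -0.12 to 0.20 for Gnas (WT 4 h over 0 h) and -0.0383 to 0.00939 for Mest (WT 2 h over 0 h). Further such ranges were -0.10 to 0.0312 for Mest (clone 4 8 h over 0 h), -0.25 to 0.0718 for Plagl1 (8 h change of clone 2 minus WT), -0.0520 to 0.0370 for Snrpn (WT 2 h over 0 h), -0.16 to 0.0882 for Snrpn (clone 2 8 h over 0 h), -0.0440 to 0.21 for Snrpn (8 h change of clone 2 minus WT) and -0.0270 to 0.0360 for Grb10 (clone 4 over WT at 0 h). Further such ranges were -0.0368 to 0.0470 for Grb10 (clone 4 over WT at 4 h) and -0.0620 to 0.000957 for Grb10 (8 h change of clone 4 minus WT). The replicate numbers gave no sign of pairing the libraries: over 20 pairs of same-numbered libraries the correlation of deviations was -0.0959 to 0.0494, with 0 over 0.1. Clone 2 against clone 4 gives the same value under either number, so the pairs are not separate checks and a pairing is not excluded. The block is given as a check alone. No value could be had without the single clone 4 library at 0 h for comparisons that need it. Depth limits Nnat most in clone 2, where a library held 7 to 40 counts.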
